A study of Mus musculus with 18 samples.

Results

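The genes described here encode the Klhl and Asb proteins, adaptors that choose the targets of cullin-RING ubiquitin ligases. They were taken from a whole-transcript array study of ageing mouse muscle as every gene with a probeset that carries a single symbol beginning with Klhl or Asb and a number. That gave 36 genes of 13255 with such a probeset, 20 Klhl and 16 Asb, each represented by its brightest probeset. RNA came from the gastrocnemius, the fast-twitch muscle of the calf, of both legs of male C57BL/6 mice aged 2, 11 or 25 months, with no treatment. Each age had 6 biological replicates, each on its own array. No allele or agent was named for any age, and age was the only difference between the groups that the labels gave. A current RefSeq table lists 55 protein-coding symbols of these families, and the ones without a single-symbol probeset, Klhl40 and Klhl41 among them, were not analysed here.

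Cullin-RING ligases are assembled from a cullin scaffold, a RING protein that brings the ubiquitin-loaded enzyme, and an exchangeable adaptor that binds the target. Klhl proteins bind cullin 3 through a BTB domain and the target through a Kelch propeller. Asb proteins bind elongins and cullin 5 through a SOCS box and the target through ankyrin repeats. Several members of both families are made mainly in striated muscle, where loss of some Klhl proteins disturbs the sarcomere in mice and humans.

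Signals below are log2 intensities of the deposited values, and errors are standard deviations over 6 arrays for means and standard errors (SE) of the fit for log2 changes. A gene was called where its adjusted p, from limma with Benjamini-Hochberg adjustment over all 15300 probesets, was under 0.05. The median intensity of the arrays was 97.6 to 101. The spread of each array's log2 values between their quartiles, here called the signal range, was 2.03 to 2.35 at 2 months, 2.25 to 2.45 at 11 months and 2.13 to 2.37 at 25 months. Bright probesets moved with it: the median log2 change of the brightest 25% of probesets was 0.094 for 11 against 2 months, -0.026 for 25 against 11 months and 0.067 for 25 against 2 months, and 14 of the 36 members lie among them. As a check of the tissue label, the 7 measured myofibre markers, such as Ckm, muscle creatine kinase (14.08, 14.07 and 14.07 at 2, 11 and 25 months), were all among the brightest probesets. In whole muscle, fewer cells of a type and less RNA per cell cannot be told apart.

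Between 11 and 2 months, adult against young muscle, 6 of the 36 members rose and 1 fell, or 19.4%, against 19.1% of all probesets (11.9% higher and 7.18% lower). The share of members that changed was thus near the background. After a further quantile normalization the split over all probesets was 1328 higher and 1214 lower, in place of 1820 and 1099. The size of the changes was uneven: Klhl38 rose 2.43-fold and Asb15 1.81-fold, and these 2 were the members past 1.5-fold, a size that 0.902% of all probesets reached with a call. The one-way test with Tukey that the series names called 7 members (15.0% of all probesets), and 11 had an unadjusted p under 0.05 (35.8% of all probesets). Asb10, Asb4, Asb11 and Asb13 rose by 1.12-fold to 1.41-fold, and Klhl8 fell by 0.21 log2 units. Between 25 and 11 months limma called 0 of 36 members, against 0.150% of all probesets (0.0588% higher and 0.0915% lower, or 9 and 14 probesets, which became 11 and 9 after quantile normalization and 9 and 7 after median centring). No member passed 1.5-fold with a call (0.0523% of all probesets). Between 25 and 2 months 6 rose and 2 fell, or 22.2%, against 17.4% of all probesets (10.5% higher and 6.95% lower). The one-way test called 8 members (15.5% of all probesets), 14 had an unadjusted p under 0.05 (30.0% of all probesets), and 2, Klhl38 and Asb15, passed 1.5-fold with a call (1.30% of all probesets). The F statistic of limma over the 3 ages called 8 of 36 members, against 19.2% of all probesets. The median log2 change of the members was 0.014, -0.024 and 0.004 in these 3 comparisons, beside -0.016, 0.002 and -0.014 over all probesets.

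**Figure D1:**
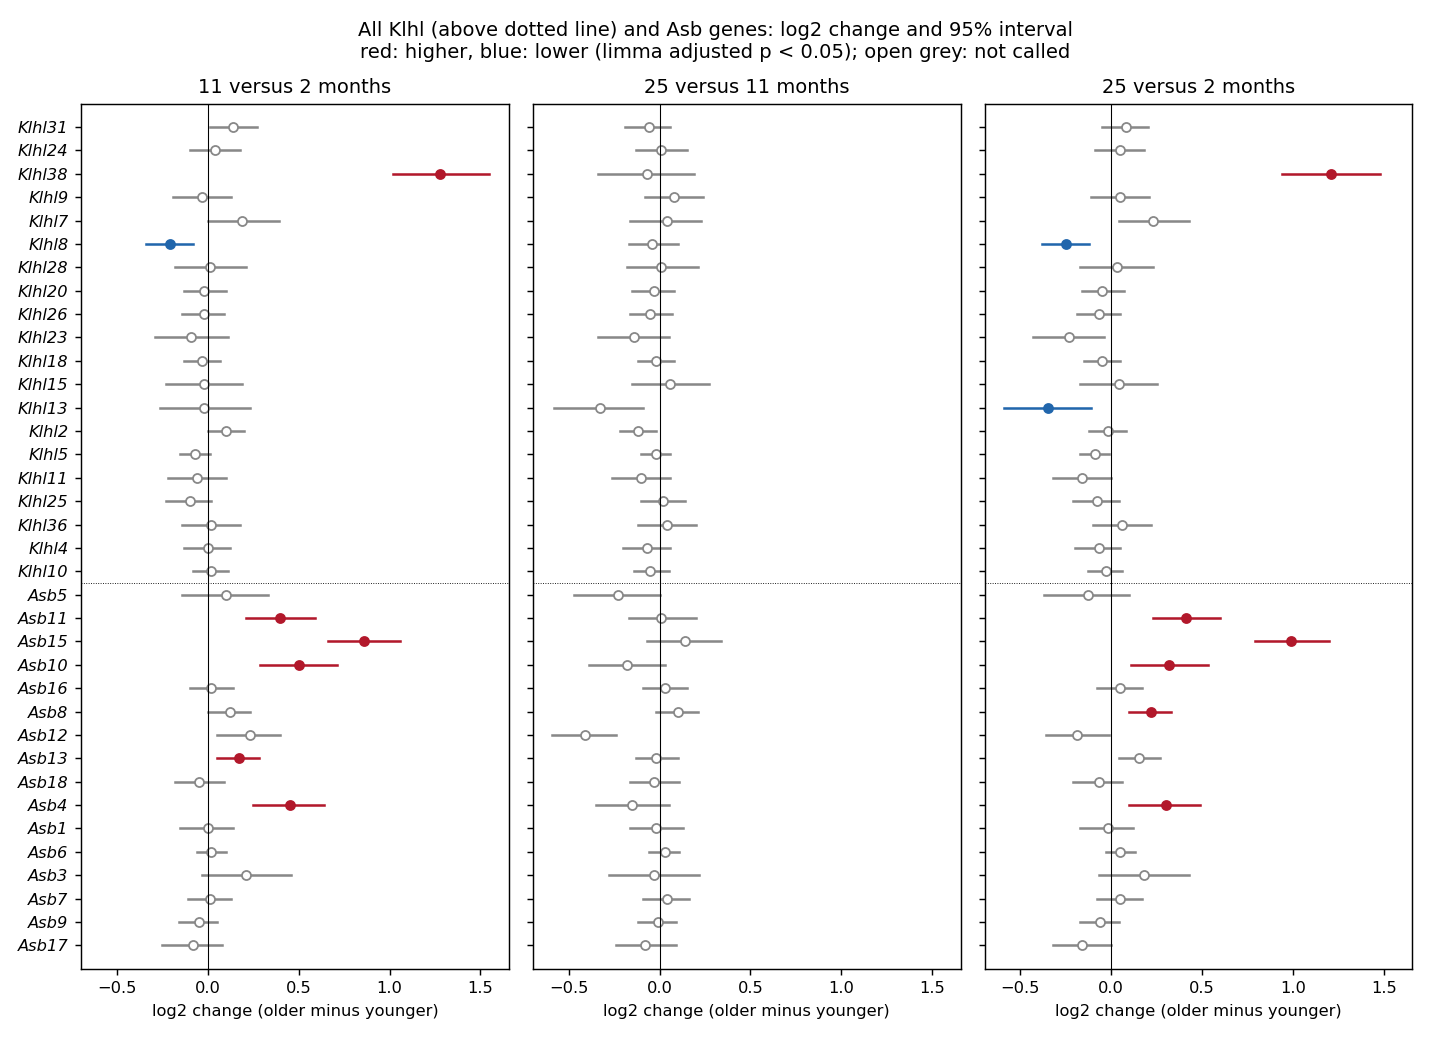
Log2 change (older minus younger) with its 95% interval for each of the 36 genes in the 3 comparisons of ages, Klhl genes above the dotted line and Asb genes below it, ordered within each family by probeset signal. Filled red marks genes called higher and filled blue genes called lower by limma; Klhl38 (1.28) and Asb15 (0.86) lie farthest to the right for 11 against 2 months, and no symbol is filled for 25 against 11 months.

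Klhl38, a BTB-Kelch member, had the largest change of the members. Its signal had a lowest, median and highest value of 8.13, 8.52 and 9.13 at 2 months, of 9.75, 9.81 and 9.91 at 11 months and of 9.32, 9.88 and 9.94 at 25 months. The 6 young arrays were spread over 1 log2 unit and all lay below the arrays of both older ages, while the 11-month arrays lay close together. Its log2 change was 1.28 (SE 0.13) for 11 against 2 months, with an adjusted p of 2.81e-06 by limma. Between 25 and 2 months the log2 change was 1.21 (adjusted p = 2.06e-06 by limma). Between 25 and 11 months it was -0.07 with a 95% interval of -0.34 to 0.19, and the arrays of those ages overlapped.

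Asb15, a muscle-enriched SOCS box protein reported to affect protein turnover in muscle cells, was likewise lower at 2 months than at both older ages. Its lowest, median and highest signals were 8.46, 8.89 and 9.23 at 2 months, 9.60, 9.76 and 9.82 at 11 months and 9.75, 9.85 and 10.02 at 25 months. No young array reached the lowest array of either older age. The log2 change was 0.86 (SE 0.10) for 11 against 2 months (adjusted p = 9.93e-06 by limma) and 0.99 (SE 0.10), or 1.99-fold, for 25 against 2 months (adjusted p = 7.96e-07 by limma). For 25 against 11 months it was 0.14 with a 95% interval of -0.07 to 0.34. Klhl38 and Asb15 were the 2 members whose arrays did not overlap with the older age higher, both for 11 against 2 months (4.05% of all probesets) and for 25 against 2 months (4.29% of all probesets). No member was lower without overlap in these comparisons (2.37% and 2.93% of all probesets), and none was higher without overlap for 25 against 11 months (0.340% of all probesets).

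**Figure D2:**
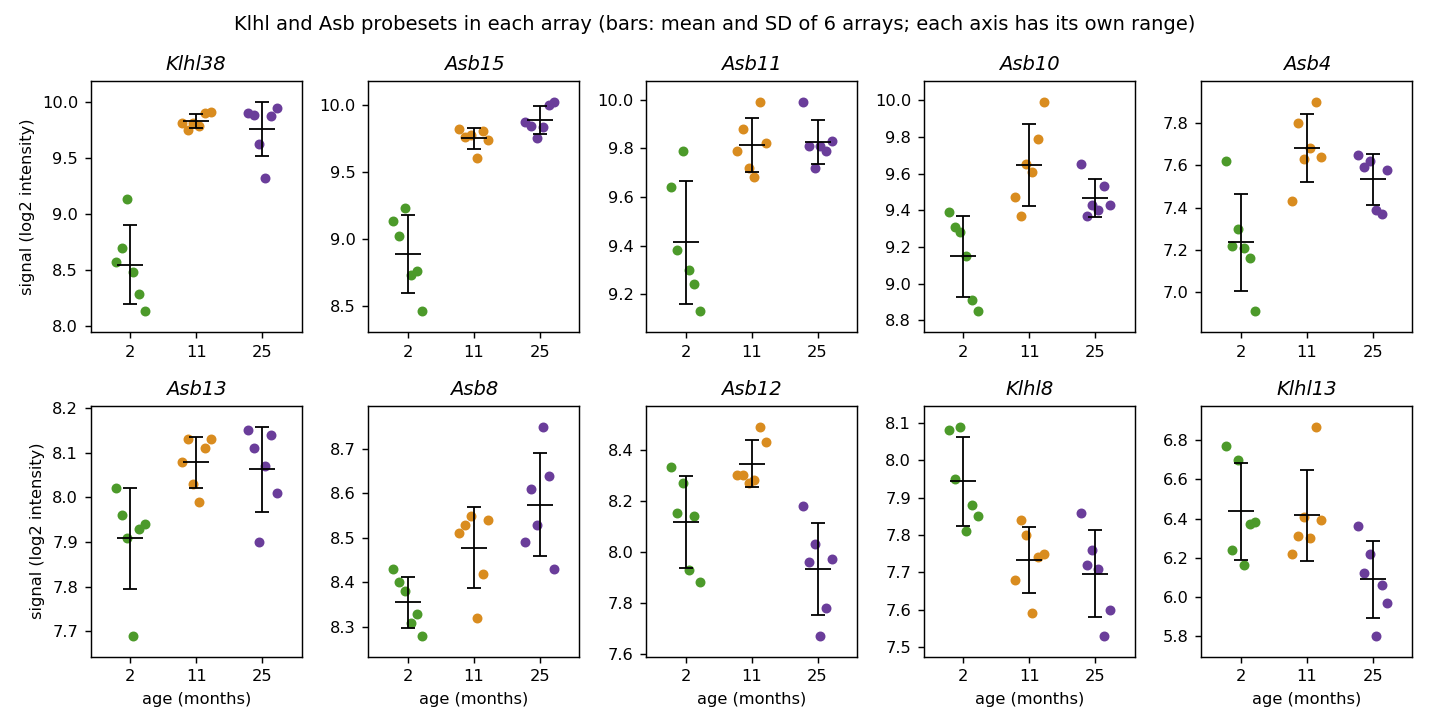
Log2 intensity in each of the 18 arrays for 10 genes, by age in months, with points from left to right by replicate number and black bars for the mean and standard deviation of 6 arrays; each panel has its own vertical range. The young points of Klhl38 (8.13 to 9.13) and Asb15 (8.46 to 9.23) lie below every older point, while in the other panels the young arrays overlap those of at least 1 older age.

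The other rising members were Asb genes with smaller changes and overlapping arrays. Asb11, whose zebrafish counterpart acts in Delta-Notch signalling, had lowest, median and highest signals of 9.13, 9.34 and 9.79 at 2 months, 9.68, 9.81 and 9.99 at 11 months and 9.72, 9.81 and 9.99 at 25 months. The young arrays of replicates 1 and 3 (9.64 and 9.79) lay near or within the older range and the other 4 below it. It rose 1.32-fold at 11 months (adjusted p = 0.00447) and 1.33-fold at 25 months (adjusted p = 0.00284), both against 2 months by limma.

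Asb10, a gene linked to glaucoma in humans, had 8.85, 9.22 and 9.39 at 2 months, 9.37, 9.63 and 9.99 at 11 months and 9.37, 9.43 and 9.65 at 25 months as lowest, median and highest signals. The highest young array just reached the lowest older ones. It rose 1.41-fold for 11 against 2 months (adjusted p = 0.00222 by limma). Its log2 change for 25 against 2 months was 0.32 (adjusted p = 0.0323 by limma), a call that ended when any of replicates 4, 5 and 6 of 2 months or of replicates 1, 5 and 6 of 25 months was left out.

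Asb4, which takes part in vascular differentiation and is hydroxylated by an oxygen sensor of the HIF pathway, had 6.91, 7.21 and 7.62 at 2 months, 7.43, 7.66 and 7.90 at 11 months and 7.37, 7.59 and 7.65 at 25 months. Young replicate 1 (7.62) lay within the range of the older arrays. The gene rose 1.36-fold for 11 against 2 months (adjusted p = 0.00311 by limma) and 1.23-fold for 25 against 2 months (adjusted p = 0.0339 by limma), and the second call ended when any of replicates 2, 4, 5 and 6 of 2 months or of replicates 1, 2, 3 and 6 of 25 months was left out. Of 6 endothelial markers 1 rose for 11 against 2 months (Emcn, log2 change 0.23), where 11.9% of all probesets rose. For 25 against 2 months 3 fell (Tek, Tie1 and Pecam1, log2 changes -0.32 to -0.15), where 6.95% of all probesets fell. The summed intensity of the 6 markers was 1870 to 2270 at 11 months and 1740 to 1980 at 25 months, against 1910 to 2190 at 2 months. Their part in the Asb4 result was not tested.

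Asb13 and Asb8 were each called in a single comparison. Asb13 averaged 8.08 ± 0.06 at 11 months and 7.91 ± 0.11 at 2 months (SD, n = 6 each), a 1.12-fold rise (adjusted p = 0.0399 by limma). Without 2 months replicate 4, its lowest array at 7.69, the log2 change was 0.12 in place of 0.17 and the adjusted p 0.0964 by limma, and leaving out 2 months replicate 5 or 6 or 11 months replicate 1, 2, 3, 5 or 6 ended the call too. The one-way test with Tukey and a limma fit of the 2 ages alone did not call Asb13 for 11 against 2 months either. Asb13 did not pass for 25 against 2 months (adjusted p = 0.0672 by limma). Asb8 averaged 8.57 ± 0.11 at 25 months and 8.36 ± 0.06 at 2 months (SD, n = 6 each), a 1.16-fold rise (adjusted p = 0.00964 by limma). This call ended after quantile normalization (adjusted p = 0.0864) and without the 3 arrays of narrowest signal range (adjusted p = 0.0977). At 11 months it averaged 8.48 ± 0.09, which differed from 2 months by 0.12 log2 units with a 95% interval of 0 to 0.23 and did not pass (adjusted p = 0.126 by limma).

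The calls of Asb10, Asb11, Asb4 and Asb13 for 11 against 2 months depended on how the signal range of the arrays was treated. With the signal range as a covariate, a fit that called 6.27% of all probesets for 11 against 2 months in place of 19.1%, the log2 changes were 0.39 for Asb10 (adjusted p = 0.0539), 0.26 for Asb11 (adjusted p = 0.114), 0.27 for Asb4 (adjusted p = 0.0896) and 0.11 for Asb13 (adjusted p = 0.343), all by limma. After a further quantile normalization, which gives all arrays the same range, Asb10 (0.41, adjusted p = 0.00609), Asb11 (0.30, adjusted p = 0.0156) and Asb4 (0.39, adjusted p = 0.00437) were called by limma and Asb13 (0.10, adjusted p = 0.181) was not. Klhl38 and Asb15 also had smaller log2 changes with the covariate, 1.18 and 0.76, and kept their calls there and in the other alternatives, with adjusted p of at most 0.000248 and 0.000552. Among the young arrays, replicate 6, with a signal range of 2.16, was the lowest for Klhl38, Asb15, Asb11, Asb10, Asb4, Asb8 and Asb12. Replicates 4 and 6 of that age and replicate 5 of 25 months had the narrowest ranges. Without them Klhl38, Asb15 and Asb11 were the members called higher for 25 against 2 months, and all but Asb13 of the rising members for 11 against 2 months.

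**Figure D3:**
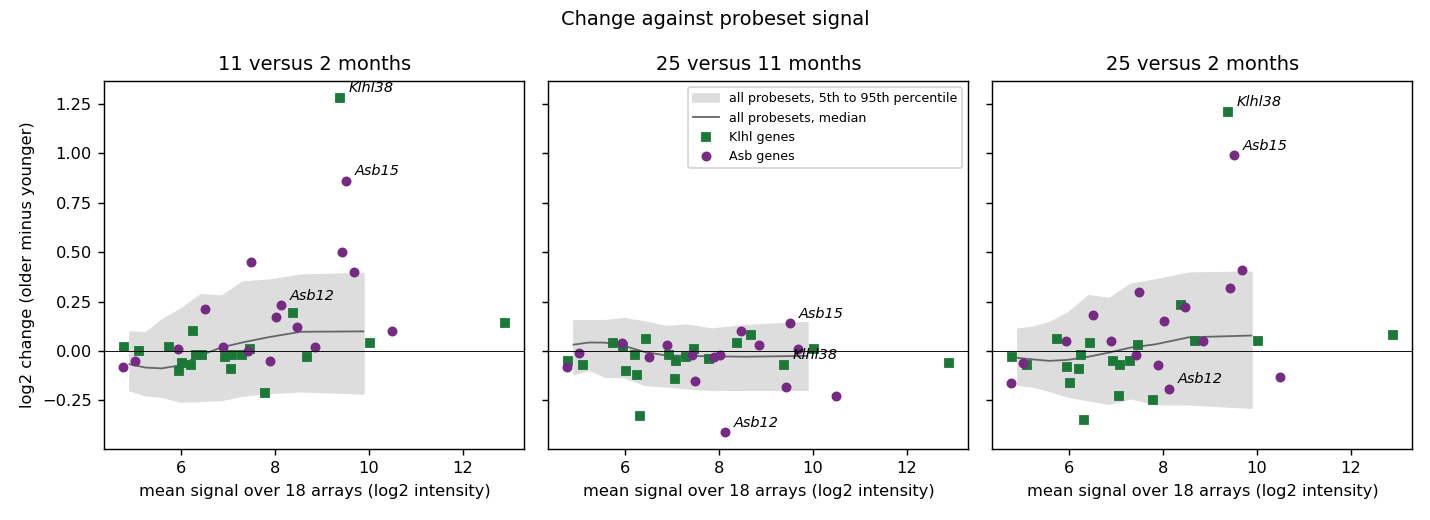
Log2 change (older minus younger) of each gene against its mean log2 intensity over 18 arrays in the 3 comparisons, squares for Klhl and circles for Asb genes. The grey band spans the 5th to 95th percentile of all probesets in 10 bins of signal and the grey line their median; Klhl38 and Asb15 lie far above the band for 11 and 25 against 2 months, and Asb12 (-0.41) lies below it for 25 against 11 months.

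The promoters of Asb15, Asb11 and Asb10, which rose after 2 months and have 1 promoter each in the RefSeq promoter table (build GRCm38.p6), are shown. That of Asb12, the member with the largest difference between 25 and 11 months, is added. Asb13, which also rose and has 1 promoter there with 1 E-box, is not shown. Klhl38 and Klhl8 have no promoter in that table. Each window runs from 250 bases before to 50 after the annotated start and is written 5′ to 3′ on the gene's strand. They lie at chr6:24527894-24528193 (Asb15, plus strand), chrX:164436744-164437043 (Asb11, plus), chr5:24540929-24541228 (Asb10, minus) and chrX:95478080-95478379 (Asb12, minus). Capitals mark E-boxes (CANNTG, the same on both strands), the sites that myogenic regulators can bind, in the first 3 sequences, and a match to the MEF2 consensus alone in Asb12.
Asb15: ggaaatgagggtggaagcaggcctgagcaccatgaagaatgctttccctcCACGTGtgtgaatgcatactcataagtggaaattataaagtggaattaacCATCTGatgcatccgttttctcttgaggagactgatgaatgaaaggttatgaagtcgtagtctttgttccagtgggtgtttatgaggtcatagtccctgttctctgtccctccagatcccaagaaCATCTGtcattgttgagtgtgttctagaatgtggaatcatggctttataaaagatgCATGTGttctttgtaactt
Asb11: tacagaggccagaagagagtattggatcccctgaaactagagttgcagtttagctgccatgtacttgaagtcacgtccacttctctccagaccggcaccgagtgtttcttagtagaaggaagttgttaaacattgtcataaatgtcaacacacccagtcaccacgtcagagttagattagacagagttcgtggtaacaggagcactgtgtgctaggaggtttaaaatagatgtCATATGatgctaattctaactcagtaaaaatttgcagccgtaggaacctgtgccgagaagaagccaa
Asb10: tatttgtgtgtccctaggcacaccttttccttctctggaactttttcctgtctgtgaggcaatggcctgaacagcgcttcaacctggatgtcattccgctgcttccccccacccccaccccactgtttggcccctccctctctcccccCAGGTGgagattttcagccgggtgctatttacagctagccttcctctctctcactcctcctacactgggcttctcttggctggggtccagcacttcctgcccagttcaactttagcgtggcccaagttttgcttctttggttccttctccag
Asb12: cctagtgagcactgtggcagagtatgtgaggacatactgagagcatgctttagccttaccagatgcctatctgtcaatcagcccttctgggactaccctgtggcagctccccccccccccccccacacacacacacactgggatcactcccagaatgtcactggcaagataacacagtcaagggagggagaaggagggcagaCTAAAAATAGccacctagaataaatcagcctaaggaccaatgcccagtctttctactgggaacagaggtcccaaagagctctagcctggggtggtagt

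Asb15 held 4 E-boxes, at positions -200, -150, -25 and 31 relative to the start, and 6.49% of the 32851 promoters of the table held 4 or more. Asb11 and Asb10 held 1 each, and 72.3% of all promoters held at least 1. Over the members, 32 genes matched the table with 45 promoters, of which 28 (62.2%) held an E-box. The MEF2 match of Asb12 starts at position -48, and 3.19% of all promoters and 4 of the 45 member promoters held such a match, which may occur on either strand. The FoxO letters GTAAACA on either strand were in 3.65% of all promoters and in 2 of the 45, and the CArG box in 1.63% and in 1 of the 45. These windows describe letters alone and bear on no factor's binding.

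Asb12 was the member with the largest difference between 25 and 11 months. Its lowest, median and highest signals were 7.88, 8.15 and 8.33 at 2 months, 8.27, 8.30 and 8.49 at 11 months and 7.67, 7.96 and 8.18 at 25 months. The old arrays all lay below the adult ones, a pattern that 0.778% of all probesets showed in this direction, while the young arrays overlapped both. The F statistic over the 3 ages called it (adjusted p = 0.00505 by limma). For 25 against 11 months its log2 change was -0.41 with a 95% interval of -0.59 to -0.24, which missed the threshold (adjusted p = 0.0527 by limma). The one-way test with Tukey called it, and it was the single member called of 36, against 3.01% of all probesets. Of 29 alternatives 11 put it past the threshold, among them leaving out 2 months replicate 1, 4 or 6 or 25 months replicate 1, and the adjusted p over all of them was 0.0108 to 0.146.

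For 25 against 11 months, 3 of 36 members had an unadjusted p under 0.05, against 10.4% of all probesets: Asb12, Klhl13 and Klhl2. Klhl13, which with Klhl9 guides Aurora B in dividing human cells, had lowest, median and highest signals of 6.16, 6.37 and 6.77 at 2 months, 6.22, 6.35 and 6.87 at 11 months and 5.80, 6.09 and 6.36 at 25 months. The old arrays shifted downward but overlapped both younger ages. It fell by 0.35 log2 units for 25 against 2 months (SE 0.12, adjusted p = 0.0438 by limma), a call that ended (adjusted p up to 0.102) without 2 months replicate 1, 3, 5 or 6, 11 months replicate 2, 3 or 6, or 25 months replicate 2, 4, 5 or 6. The call also ended after quantile normalization, without the 3 arrays of narrowest signal range and by the one-way test with Tukey. Klhl2, an adaptor for WNK kinases, averaged 6.20 ± 0.05 at 25 months and 6.33 ± 0.07 at 11 months (SD, n = 6 each) and did not pass (adjusted p = 0.401 by limma).

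Klhl8, whose worm counterpart KEL-8 acts on rapsyn stability, was the member called lower in both comparisons with 2 months. Its signals were 7.81, 7.92 and 8.09 at 2 months, 7.59, 7.75 and 7.84 at 11 months and 7.53, 7.71 and 7.86 at 25 months as lowest, median and highest. The young and older arrays overlapped slightly. The log2 change was -0.21 (SE 0.06) for 11 against 2 months (adjusted p = 0.0246 by limma), and this call ended without 11 months replicate 4 (adjusted p = 0.0548). Against 2 months the 25-month change was -0.25 (SE 0.06, adjusted p = 0.00927 by limma), and of the alternatives only the 1.5-fold minimum, which this 1.19-fold change does not reach, ended that call.

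The remaining Klhl members did not pass by limma in any pairwise comparison of the values as deposited. The one-way test with Tukey called Klhl5 lower at both 11 and 25 months against 2 months (log2 changes -0.07 and -0.09). Klhl31, a muscle Klhl protein whose loss causes myopathy in mice, averaged 12.83 ± 0.09, 12.97 ± 0.07 and 12.91 ± 0.14 at 2, 11 and 25 months (SD, n = 6 each). Its change for 11 against 2 months was 0.14 log2 units with a 95% interval of 0.01 to 0.27 (adjusted p = 0.105 by limma), and a second probeset gave 0.15. After quantile normalization Klhl31 was called in this comparison (adjusted p = 0.0142 by limma). Klhl24, linked in humans to keratin turnover and to heart disease, averaged 9.99 ± 0.16, 10.03 ± 0.06 and 10.04 ± 0.11, and Klhl9 8.68 ± 0.14, 8.65 ± 0.18 and 8.73 ± 0.07. Klhl7, linked to retinal degeneration in humans, averaged 8.25 ± 0.23, 8.44 ± 0.11 and 8.48 ± 0.17, with an adjusted p of 0.097 by limma for 25 against 2 months. Klhl23 averaged 7.18 ± 0.16, 7.09 ± 0.20 and 6.95 ± 0.17 (adjusted p = 0.099 by limma for 25 against 2 months). Of 29 alternatives 2 called Klhl7 and 4 called Klhl23 for 25 against 2 months, with adjusted p down to 0.0279 and 0.0091 by limma. Those that called Klhl23 included the signal range as a covariate and the replicate number as a block. The uncalled Klhl genes as a whole had log2 changes of -0.10 to 0.19 for 11 against 2 months and -0.23 to 0.23 for 25 against 2 months.

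Among Asb genes without a call, Asb5 averaged 10.51 ± 0.32, 10.61 ± 0.12 and 10.38 ± 0.16 at 2, 11 and 25 months (SD, n = 6 each), with a change of -0.23 and a 95% interval of -0.47 to 0 for 25 against 11 months (adjusted p = 0.483 by limma). Asb16 averaged 8.82 ± 0.07, 8.84 ± 0.14 and 8.87 ± 0.07, and Asb18 7.93 ± 0.17, 7.88 ± 0.05 and 7.86 ± 0.08. Their 95% intervals for 25 against 2 months were -0.08 to 0.17 for Asb16 and -0.21 to 0.06 for Asb18. The probesets of Asb17 and Klhl10, genes known from the testis, of Asb9, which targets the brain creatine kinase, and of Klhl4 were among the dimmest 25%, with mean signals of 4.70 to 5.14 at every age. None of these 4 passed.

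By family, 5 of 16 Asb genes rose and 0 fell for 11 against 2 months (11.9% and 7.18% of all probesets), with a median log2 change of 0.109, and 1 of 20 Klhl genes rose and 1 fell, with a median of -0.019. At 25 against 2 months 5 Asb genes rose and 0 fell (10.5% and 6.95% of all probesets), with a median of 0.047, and 1 Klhl gene rose and 2 fell (median -0.041). The difference between the families was not tested. Of the 14 members among the brightest 25% of probesets 5 rose in each of these comparisons, beside 994 of all 3825 such probesets for 11 against 2 months and 882 for 25 against 2 months.

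Neighbouring genes on the chromosome were looked up for each of the 9 members called in a pairwise comparison, taking the protein-coding gene on either side in the RefSeq table (GRCm38.p6). Of 18 neighbours, 13 were measured and are no members. For 11 against 2 months 3 of the 13 rose and 1 fell, beside 11.9% and 7.18% of all probesets. For 25 against 2 months 3 rose and 1 fell, beside 10.5% and 6.95% of all probesets. Klhl38 lies next to Fbxo32, which encodes the atrophy ligase atrogin-1, an F-box adaptor of another cullin ligase. Fbxo32 had lowest, median and highest signals of 9.53, 10.18 and 10.64 at 2 months, 10.97, 11.26 and 11.34 at 11 months and 10.77, 11.07 and 11.26 at 25 months. Like Klhl38, it had all young arrays below all older ones. Within ages the order of the arrays was similar for the 2 genes at 2 and 25 months and differed at 11 months. At 2 months replicates 1, 2 and 3 were the highest for both, and the lowest was replicate 5 for Fbxo32 and replicate 6 for Klhl38. At 25 months replicates 1, 2 and 6 were the highest and replicate 4 the lowest for both. At 11 months, where the Klhl38 arrays lay between 9.75 and 9.91, replicate 2 was the highest for Fbxo32 (11.34) and the lowest for Klhl38. The log2 change of Fbxo32 for 25 against 2 months was 0.93 (SE 0.15, adjusted p = 0.000208 by limma).

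**Figure D4:**
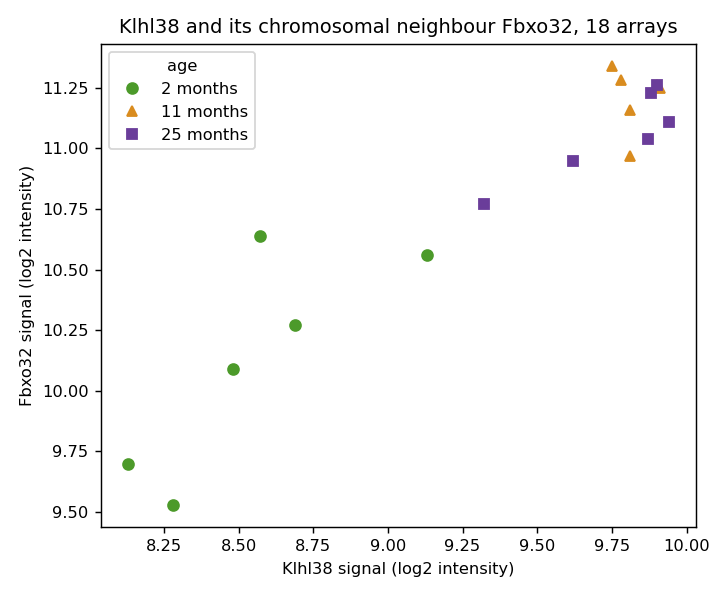
Log2 intensity of Fbxo32 (vertical) against that of its neighbour Klhl38 (horizontal) in 18 arrays, with circles for 2 months, triangles for 11 months and squares for 25 months. Young arrays fill the lower left (Fbxo32 9.53 to 10.64, Klhl38 8.13 to 9.13) and the arrays of both older ages the upper right.

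The direction of the other neighbours was mixed. Asb4 lies next to Pdk4, a kinase that limits pyruvate oxidation, and for 25 against 2 months Pdk4 fell by 0.58 log2 units (SE 0.18, adjusted p = 0.0341 by limma) while Asb4 rose. Piga, beside Asb11, fell by 0.19 for 11 against 2 months (adjusted p = 0.0178 by limma), and Asb9, on the other side of Asb11, averaged 5.02 at 11 months and 5.07 at 2 months and did not pass. Ndufa5, a respiratory chain subunit beside Asb15, had a log2 change of -0.07 for 11 against 2 months (adjusted p = 0.446 by limma). Wdr44, beside Klhl13, rose 1.27-fold for 25 against 2 months (adjusted p = 0.0028 by limma), opposite to Klhl13. Pfkm, the muscle phosphofructokinase beside Asb8, rose 1.15-fold for 11 against 2 months (adjusted p = 0.00357 by limma), where Asb8 was not called. Tasor2, beside Asb13, rose 1.15-fold for 11 against 2 months (adjusted p = 0.0452 by limma).

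Genes of the ligase machinery that these adaptors join were taken as lists of named genes. Of 27 measured genes of the cullin core, neddylation and assembly, 4 rose and 0 fell for 11 against 2 months, with a median log2 change of 0.14, against 19.1% of all probesets called. They included Elob, an elongin of the SOCS box ligases (log2 change 0.48, adjusted p = 0.000278 by limma), and Cand2, a muscle-enriched exchange factor for adaptors (1.39-fold, adjusted p = 2.22e-05 by limma). The others were Cul2 (1.31-fold) and Nedd8, the ubiquitin-like protein that activates cullins (1.23-fold). Eloc, the other elongin listed, did not pass (log2 change 0.06, adjusted p = 0.472 by limma). At 25 against 2 months 4 rose and 1 fell, beside 10.5% and 6.95% of all probesets. Those that rose were Cand2 (1.34-fold), Elob (1.36-fold), Nae1 (1.24-fold) and Cul5, the cullin of the Asb proteins (1.23-fold, adjusted p = 0.0455 by limma). Ube2f, which attaches Nedd8 to Cul5, fell (1.11-fold, adjusted p = 0.0451 by limma). Cul3, the cullin of the Klhl proteins, changed by 0.14 at 11 months and 0.08 at 25 months on the log2 scale against 2 months and did not pass (adjusted p = 0.112 and 0.443 by limma). For 25 against 11 months 0 of the 27 were called by limma, the one-way test with Tukey called 0 too, and 1 had an unadjusted p under 0.05.

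Other adaptors moved in both directions. Over all probesets 11.9% were called higher and 7.18% lower for 11 against 2 months. For 25 against 2 months these shares were 10.5% and 6.95%. Of 21 other BTB proteins 3 rose for 11 against 2 months, Ivns1abp (1.34-fold), Kbtbd4 (1.37-fold) and Kctd9 (1.26-fold), and Keap1, the adaptor that restrains Nrf2, fell 1.13-fold (adjusted p = 0.00659 by limma). For 25 against 2 months these 4 were again the ones called, with Keap1 1.16-fold lower (adjusted p = 0.00172 by limma). Of 18 other SOCS box proteins 6 rose and 3 fell for 11 against 2 months, and 5 rose and 4 fell for 25 against 2 months. At 11 months Rab40b (1.31-fold), Wsb2 (1.17-fold) and Rab40c (1.16-fold) were higher, and Fem1b (1.15-fold), Spsb4 (1.18-fold) and the cytokine signalling inhibitor Socs3 (1.28-fold) lower. At 25 months Rab40b (1.35-fold) and Socs4 (1.26-fold) were higher, and Fem1b (1.17-fold), Socs3 (1.31-fold) and Socs2, an inhibitor of growth hormone signalling (1.51-fold, adjusted p = 0.0215 by limma), lower.

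Of 9 measured partners and reported targets of the members, 2 rose for 11 against 2 months, beside 11.9% of all probesets. They were Des, the intermediate filament desmin (log2 change 0.32, adjusted p = 6.83e-05 by limma), and Nrap, a myofibril assembly protein that binds a Klhl protein (1.21-fold, adjusted p = 0.00674 by limma). For 25 against 2 months Nfe2l2, the Nrf2 factor held by Keap1, rose with them (1.18-fold, adjusted p = 0.00668 by limma). In none of these 3 lists was a gene called for 25 against 11 months by limma or by the one-way test with Tukey, while 1 other BTB protein, 2 other SOCS box proteins and 2 partners had an unadjusted p under 0.05.

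Markers of other cells in the muscle moved in the same comparisons. Of all probesets 19.1% were called for 11 against 2 months and 17.4% for 25 against 2 months. Of 6 adipocyte markers 3 rose for 11 against 2 months (Lep 1.83-fold, Cidec 1.64-fold and Adipoq 1.59-fold), with a summed intensity of 509 to 1170 at 11 months, against 490 to 680 at 2 months. At 25 months 0 of the 6 were called against 2 months by limma or by the one-way test, 0 had an unadjusted p under 0.05, and the sum was 473 to 797. Between 25 and 11 months 5 of the 6 had an unadjusted p under 0.05, with a median log2 change of -0.416 over the list, and limma and the one-way test called 0. Asb12 also had its highest mean at 11 months, but its rise from 2 months was not called (log2 change 0.23, adjusted p = 0.0627 by limma). The summed intensity of 5 skin markers was 246 to 1260 at 11 months, against 246 to 335 at 2 months, and 247 to 420 at 25 months. Limma and the one-way test called 0 of these 5 between any ages, and 1 had an unadjusted p under 0.05, for 11 against 2 months. Of 3 slow fibre markers 2 rose for 25 against 2 months (Tnni1 1.87-fold and Myl2 1.76-fold), with sums of 4020 to 8720 at 25 months, against 2270 to 6110 at 2 months. Of 7 myofibre markers 2 fell for 11 against 2 months, Mylpf (1.18-fold) and Tnnt3 (1.12-fold). Pmp22, 1 of 5 Schwann cell markers, fell 1.30-fold for 11 and 1.53-fold for 25 against 2 months, and Pax7, 1 of 4 satellite cell markers, fell 1.24-fold for 11 against 2 months. Of 5 macrophage markers Csf1r rose 1.17-fold for 11 and Cd68 1.21-fold for 25 against 2 months. The part of any of these in the changes of the Klhl and Asb genes was not tested.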

How the data were processed

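Gastrocnemius RNA of 18 male mice, 6 per age, was measured on 1 Affymetrix whole-transcript array each. The authors deposited linear intensity values for 15300 probesets; Affymetrix Expression Console 1.2.1, RMA and build mm8 are named per the submitters' processing notes, and no filter on probesets is given in the sources used here. Log2 was taken. Probesets were named from the platform annotation (13592 with 1 symbol, 941 with several, 767 with none), and 3 Klhl or Asb probesets with several symbols were left out. By Entrez identifier 36 of 36 members matched RefSeq with the same symbol.

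The test was limma 3.58.1 in R 4.3.3, with 1 mean per age over 18 arrays, contrasts between ages and Benjamini-Hochberg adjustment over all probesets within a contrast, tested on simulated data. The comparisons share arrays: both comparisons with 2 months use the same 6 young arrays. The series text names GeneSpring GX 14.9 and a one-way test with Tukey, run here as an alternative. The named genes were Klhl38, every called member, the brightest members and those known from muscle, and in the pathway lists up to 3 called genes per direction. Klhl2, Klhl5, Klhl7, Klhl23, the dimmest members, Cul3, Cul5, Nedd8, Eloc and the neighbours of members were named after their values were seen. The members and lists were chosen with earlier results of these data known. The labels call the samples biological replicates, and the number of arrays limits the precision. Figures used Python 3.11.15 and matplotlib 3.10.9.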

Additional observations from a re-analysis of the deposited data

Results flagged for a closer look

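For each of the 36 genes the highest and lowest array of each age was set against the other 5 by Dixon's criterion, 108 groups in all. Chance flags about 1 in 20 groups, and 7 stood out here. Replicate 4 of 2 months was apart for 3 genes: Asb13 (7.69, others 7.91 to 8.02), Klhl31 (12.68, others 12.83 to 12.91) and Klhl9 (8.94, others 8.57 to 8.71). Replicate 5 of 25 months was apart for Asb1 (7.69, others 7.31 to 7.41) and Klhl20 (7.11, others 7.27 to 7.32). These 2 arrays had the narrowest signal ranges of the 18 (2.03 and 2.13). At 11 months Asb15 was low in replicate 4 (9.60, others 9.74 to 9.82) and Klhl13 high in replicate 5 (6.87, others 6.22 to 6.41).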

How the results depend on the processing

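For 11 against 2 months the count of members called higher was 6, and 2 with the signal range as a covariate or a fold of at least 1.5; without single arrays it was 5 to 8. The count called lower was 1, with 2 (Klhl8 and Klhl5) by the one-way test with Tukey, 0 at an adjusted p under 0.01 or with the fold minimum, and 0 to 1 without single arrays. For 25 against 11 months the count lower was 0, with 1 (Asb12) after quantile normalization, without the dimmest 25% of probesets, with array weights, in a fit of the 2 ages, with the signal range as a covariate, without the 3 narrowest arrays and by the one-way test, and 0 to 1 without single arrays; the count higher was 0 throughout. For 25 against 2 months the count higher was 6, with 3 without the 3 narrowest arrays, 2 with the fold minimum and 4 to 8 without single arrays. The count lower was 2, with 4 (Klhl8, Klhl13, Klhl23 and Asb12) under the covariate. It was 1 at an adjusted p under 0.01, 0 with the fold minimum and 1 to 3 without single arrays.

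Calls of Asb10 and Asb4 for 25 against 2 months ended under 11 and 12 of 29 alternatives, Klhl13 under 15 and Asb13 (11 against 2 months) under 14; 6 of the 15 called results kept their call under all 29, which leave out the fold minimum. Under quantile normalization the 6 members called higher for 11 against 2 months held Klhl31 in place of Asb13. No called gene reversed. The replicate number as a block gave adjusted p of 0.0635 for Asb10 and 0.0557 for Asb4 by limma (25 against 2 months). Same-numbered arrays deviated together in 7 of 18 pairs (correlation over 0.1, range -0.325 to 0.42) and 4 of 18 correlated best with their own number. These correlations over whole arrays showed no steady pairing by number. They cannot settle whether same-numbered arrays were handled together. Over all probesets, calls for 11 against 2 months numbered 523 higher and 436 lower with the covariate, against 1820 and 1099, and for 25 against 11 months 62 and 123 with array weights and 159 and 302 by the one-way test, against 9 and 14. The dimmest probeset of a gene changed no count of members. Dim signal limits Asb17, Klhl10, Asb9 and Klhl4.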
